A study of Homo sapiens with 6 samples.

Results

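The growth hormone and insulin-like growth factor (IGF) axis was examined in RNA sequencing of Hep3B cells, an established human hepatocellular carcinoma line. Its 10 members, GHR, IGF1, IGF1R, IGFALS, IGFBP1, IGFBP2, IGFBP3, IGFBP4, JAK2 and STAT5B, were taken by gene symbol from 23228 genes in the tables, and all 10 were found. They were picked with the difference between the groups already in view, so each member's difference is given as a description, with its standard error but no p-value. Counts of members past a threshold are descriptions too. The control cells carried a lentiviral non-targeted shRNA, and the PELP1-KD cells carried a lentiviral shRNA against PELP1, a coregulator and subunit of the Rix1 complex. Each group has 3 libraries, numbered 1 to 3. According to the labels the knockdown cells were selected with puromycin and used as pooled clones. The library titles name the first PELP1 shRNA, whereas the treatment text names both, so the hairpin is not certain. Nothing in the labels says that the libraries of a group came from separate cultures, so the spread between them may be technical. The labels also differ from each other on the RNA kit, on poly(A) selection or removal of ribosomal RNA, and on single or paired reads.

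In the liver, growth hormone binds its receptor GHR on hepatocytes, the kinase JAK2 bound to GHR phosphorylates STAT5 proteins, and these switch on genes such as IGF1 and IGFALS. IGF1 and its relative IGF2 act through the receptor IGF1R. In blood most IGF is held in a complex of IGFBP3 and the acid-labile subunit, the product of IGFALS, and IGFBP1, IGFBP2 and IGFBP4 are smaller carriers that hold IGF away from its receptor. The liver is the main source of circulating IGF1, IGFALS and several of the binding proteins.

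The libraries held from 26758363 to 34456542 reads on genes. Read numbers were scaled to library size (normalized reads), and 14537 genes passed the filter on low counts. PELP1 itself had 4969.9 ± 115 normalized reads in control (SD, n = 3) and 4695 ± 238 in PELP1-KD (SD, n = 3). This is 94.5% of the control level (edgeR, adjusted p = 0.101). PELP1 was lower in each PELP1-KD library than in any control library, as were 29.3% of all tested genes. By edgeR it was called lower with the replicate number as a block (adjusted p = 0.0106) and without PELP1-KD replicate 3 (adjusted p = 0.0179). PELP1 protein was not analysed here, and the libraries are named by their labels. All 9 hepatocyte markers on the list were present. Their summed level was 10998 to 11198 RPKM in control and 10025 to 10169 in PELP1-KD. At an adjusted p below 0.05 from edgeR, 6 of the 9 were lower and 3 higher. Over all tested genes 26.7% were lower and 26.8% higher by this rule. Of the markers of other cell types, the endothelial genes CDH5 and KDR were at 0 reads in every library. VWF, DCN, PTPRC and CD3E stayed under 10 reads. The summed level of 4 cholangiocyte markers was 312 to 330.1 RPKM in control and 536 to 587 in PELP1-KD. That of 5 stellate cell and fibroblast markers was 5.74 to 6.82 and 10.7 to 11.7 RPKM, that of 4 endothelial markers 0.45 to 0.51 and 0.434 to 0.479 RPKM, and that of 5 leukocyte markers 25.1 to 28.2 and 33.4 to 35.9 RPKM. By the same rule 0 cholangiocyte markers were lower and 2 higher, and 1 stellate cell and fibroblast marker was lower and 2 higher. For endothelial markers these counts were 0 and 0, and for leukocyte markers 1 and 1. The part of these shifts in marker level in the results was not tested.

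The promoters of a few genes are shown because STAT5 proteins bind DNA at the motif TTCNNNGAA and because IGFBP3 and IGFBP4 were both lower in PELP1-KD. The sequences are from RefSeq (GRCh38.p14), whose table held 21 windows for 9 of the 10 members, all but IGFBP1. They were searched over the 250 bases before each start, on both strands. TTCNNNGAA was found in 6.57% of all 35116 windows and in 2 of the 21 member windows, those of IGFALS and of 1 of 7 GHR starts. IGFALS lies on chromosome 16, minus strand, and its window is chr16:1794909-1795158. Capitals mark the motif, which runs from 40 to 32 bases before the start. CISH, a feedback inhibitor of the growth hormone receptor, has 4 such motifs at chr3:50611775-50612024, minus strand, a number that 5 of the 35116 windows reach.
IGFALS: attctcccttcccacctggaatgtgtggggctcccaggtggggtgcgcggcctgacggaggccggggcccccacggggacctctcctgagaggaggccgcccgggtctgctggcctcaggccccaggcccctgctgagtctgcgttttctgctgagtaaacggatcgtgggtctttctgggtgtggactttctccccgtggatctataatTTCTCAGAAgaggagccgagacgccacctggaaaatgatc
CISH: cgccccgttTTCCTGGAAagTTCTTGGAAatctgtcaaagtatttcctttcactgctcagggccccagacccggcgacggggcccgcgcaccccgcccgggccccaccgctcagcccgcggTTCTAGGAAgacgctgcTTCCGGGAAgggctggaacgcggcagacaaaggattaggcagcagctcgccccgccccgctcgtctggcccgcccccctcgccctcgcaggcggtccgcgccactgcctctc

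The windows of IGFBP4 (chr17:40443200-40443449, plus strand) and IGFBP3 (chr7:45921273-45921522, minus strand) hold no TTCNNNGAA. Each has a TATA-like hexamer, shown in capitals, that begins 29 and 30 bases before the start. TATAAA or TATATA was present in 12.8% of all windows and in 5 of the 21 member windows, the other 3 being of 7 GHR starts. The windows of IGFALS and IGFBP2 held none. These matches describe the letters of the windows only.
IGFBP4: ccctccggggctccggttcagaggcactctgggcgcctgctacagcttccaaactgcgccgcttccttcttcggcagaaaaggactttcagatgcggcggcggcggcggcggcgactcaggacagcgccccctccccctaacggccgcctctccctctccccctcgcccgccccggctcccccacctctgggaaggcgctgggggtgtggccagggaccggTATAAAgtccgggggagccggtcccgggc
IGFBP3: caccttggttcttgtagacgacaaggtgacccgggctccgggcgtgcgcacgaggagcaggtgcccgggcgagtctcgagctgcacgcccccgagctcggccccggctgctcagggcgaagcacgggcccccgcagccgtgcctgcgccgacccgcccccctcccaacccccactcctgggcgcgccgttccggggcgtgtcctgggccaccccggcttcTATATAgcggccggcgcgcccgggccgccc

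GHR, the growth hormone receptor, was lower in PELP1-KD, and its kinase JAK2 was higher. GHR lies on chromosome 5 of hg19 from 42423877 to 42721980, plus strand, with 6143 exon bases. Its reads were 379, 403 and 341 in control and 105, 85 and 77 in PELP1-KD. The lowest control library lay far above the highest PELP1-KD library, and the groups did not overlap. After normalization GHR had 353 ± 30.9 reads in control and 94.5 ± 15.8 in PELP1-KD (SD, n = 3 each), which is 26.8% of the control level. On the log2 scale GHR differed by −1.90 (standard error 0.12, 95% interval −2.23 to −1.58), and 2.10% of the tested genes had a lower value. In bulk RNA, fewer cells with a transcript and less of it per cell cannot be told apart. GHR is among the genes for which the study made RT-qPCR primers, so its direction is not independent of the study's own choice on these libraries.

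JAK2, the tyrosine kinase bound to GHR, lies on chromosome 9 from 4985245 to 5128183, plus strand. It had 283, 273 and 285 reads in control and 464, 363 and 390 in PELP1-KD. All PELP1-KD libraries were above the control libraries. The normalized level was 264 ± 6.63 reads in control and 429 ± 43.0 in PELP1-KD (SD, n = 3 each), and JAK2 differed on the log2 scale by 0.70 (standard error 0.08, 95% interval 0.46 to 0.94). Within a library, the ratio of GHR to JAK2 per exon length was 1.15 ± 0.12 in control and 0.189 ± 0.0166 in PELP1-KD (SD, n = 3 each).

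STAT5B, the transcription factor that carries the growth hormone signal to the nucleus, differed little between the groups. It lies on chromosome 17 from 40351195 to 40428424, minus strand. Its normalized reads were 1491, 1579 and 1617 in control and 1506, 1611 and 1553 in PELP1-KD, and the groups overlapped. Its log2 difference was −0.01 (95% interval −0.14 to 0.13). In 3 libraries its deposited value was not whole, so some of its reads were shared with another place. STAT5A is a close paralog, but whether it was that place was not checked. IGF1R values were not whole in 3 libraries either.

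**Figure D1:**
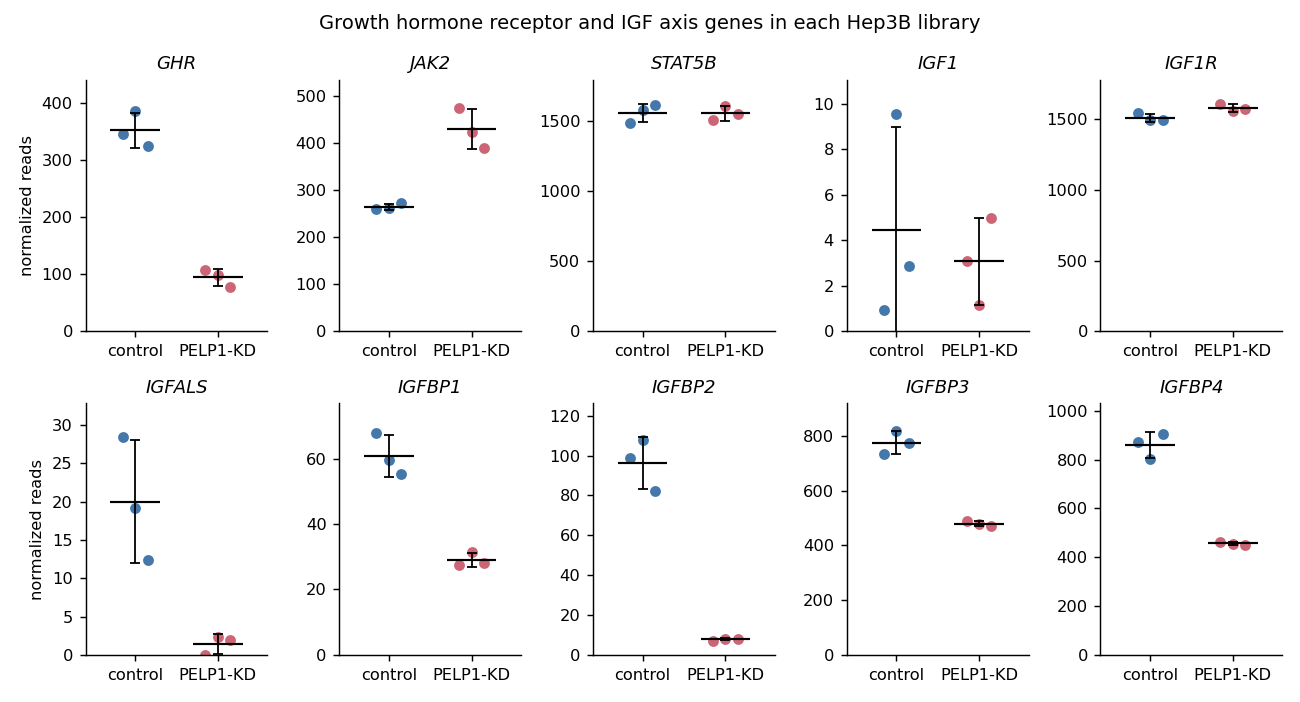
Normalized reads (vertical axes, each from 0) of the 10 members in the 3 control (blue) and 3 PELP1-KD (red) libraries, with the mean and SD as lines, cut at 0 for IGF1. GHR, IGFALS and IGFBP1 to IGFBP4 are lower in all 3 PELP1-KD libraries, JAK2 is higher in all 3, and STAT5B and IGF1 overlap.

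IGFALS and the IGF binding proteins were lower in the PELP1-KD libraries, by amounts that differed widely. IGFALS encodes the acid-labile subunit and lies on chromosome 16 from 1840414 to 1844909, minus strand, in 3 exon intervals. It was rare, with 31, 20 and 13 reads in control and 0, 2 and 2 in PELP1-KD. Every control library exceeded every PELP1-KD library, although the control values themselves ranged over more than 2-fold. A count of 0 allows up to 3 reads, which for IGFALS is 0.042 to 0.0491 RPKM in the PELP1-KD libraries. With 64 reads in control and 4 in PELP1-KD, the ratio of control to PELP1-KD was 14.3 (95% exact binomial interval 5.3 to 53.9, counting error only). The fitted log2 fold change was −3.72 (standard error 0.61).

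IGFBP2, a carrier that is abundant in fetal liver, lies on chromosome 2 from 217498127 to 217529158, plus strand. Its reads were 108, 113 and 86 in control and 7, 7 and 8 in PELP1-KD. The PELP1-KD libraries were within 1 read of each other and far below control. The normalized level was 96.4 ± 13.3 reads in control and 7.78 ± 0.534 in PELP1-KD (SD, n = 3 each), 8.06% of control, and its log2 difference was −3.61 (standard error 0.25, 95% interval −4.31 to −2.92). IGFBP2 and IGFALS had the lowest log2 fold changes of the 9 members fitted, and 0.530% and 0.475% of the tested genes had a lower log2 fold change.

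IGFBP1 and IGFBP3 lie 18.6 kb apart on chromosome 7 on opposite strands, IGFBP1 from 45927959 to 45933267 and IGFBP3 from 45951844 to 45960871. IGFBP1, an acutely regulated carrier that insulin represses in liver, had 74, 62 and 58 reads in control and 27, 27 and 28 in PELP1-KD. IGFBP3, the main carrier in blood, had 802, 853 and 811 reads in control and 479, 410 and 471 in PELP1-KD. For both genes the groups were apart. The log2 difference was −1.07 for IGFBP1 (standard error 0.20, 95% interval −1.63 to −0.51) and −0.69 for IGFBP3 (standard error 0.06, 95% interval −0.87 to −0.51). The intervals of the neighbouring genes overlap, so a difference in their size of change was not resolved.

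IGFBP4, a carrier that inhibits IGF action until the protease PAPPA cuts it, lies on chromosome 17 from 38599676 to 38613982, plus strand. It had 951, 839 and 951 reads in control and 453, 391 and 451 in PELP1-KD. Its normalized level was 861 ± 52.3 in control and 457 ± 6.67 in PELP1-KD (SD, n = 3 each), 53.1% of control, and its log2 difference was −0.91 (standard error 0.07). The PELP1-KD libraries were all below the control libraries.

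IGF1 was barely detected and IGF1R was close to level. IGF1, the hormone made by normal liver under growth hormone, lies on chromosome 12 from 102789645 to 102874378, minus strand. It had 1, 10 and 3 reads in control and 3, 1 and 5 in PELP1-KD, and did not pass the filter on low counts. The ratio of PELP1-KD to control was 0.722 with a 95% exact binomial interval from 0.276 to 1.79, so a difference was not detectable at this depth. IGF1R, the tyrosine kinase receptor for IGF1 and IGF2, lies on chromosome 15 from 99192761 to 99507759, plus strand. Its normalized reads were 1542, 1494 and 1493 in control and 1611, 1557 and 1572 in PELP1-KD. The groups did not overlap, but the difference was small, with a log2 fold change of 0.07 (standard error 0.05, 95% interval −0.06 to 0.19).

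**Figure D2:**
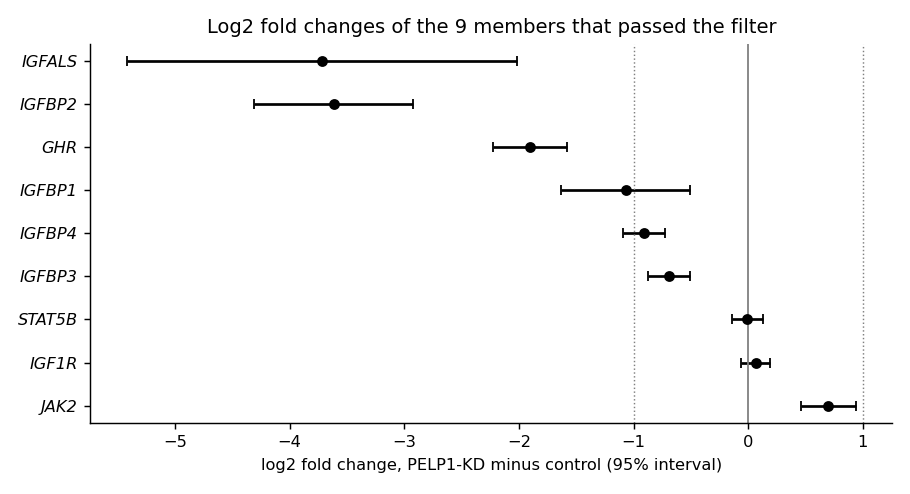
Log2 fold change of PELP1-KD minus control (horizontal axis) for the 9 members that passed the filter on low counts, with 95% intervals. The solid line marks no difference and the dotted lines a 2-fold change. The values run from −3.72 for IGFALS to 0.70 for JAK2.

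Of the 9 members that passed the filter, 6 were lower and 1 was higher at an adjusted p below 0.05 from edgeR, where 26.7% of all tested genes were lower and 26.8% higher (53.6% in either direction). With a 2-fold change as well, 4 were lower (GHR, IGFALS, IGFBP1 and IGFBP2) and 0 higher, against 4.79% and 2.85% of all tested genes (7.64% in either direction). IGFALS and IGFBP2 passed the filter on low counts only through the control libraries, where they were higher. Without control replicate 1, IGFBP1 had a log2 fold change of −0.98 and 3 members passed the 2-fold limit. The libraries of the groups did not overlap for 8 of the 9, against 58.8% of all tested genes. Their median log2 fold change was −0.91, and that of all tested genes was 0.00. As the members were picked on this same contrast, these counts describe the choice and are no evidence about the axis. Over the alternatives run, the log2 fold change of GHR lay between −2.01 and −1.77, that of IGFALS between −4.16 and −3.15 and that of JAK2 between 0.62 and 0.77, while that of STAT5B varied in sign, from −0.04 to 0.02.

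Levels were compared between genes as RPKM, which are reads scaled to exon length and library size. In control the order of the members was IGFBP4 (12.3 ± 0.745 RPKM), STAT5B (9.76 ± 0.401), IGFBP3 (9.38 ± 0.498), IGF1R (4.27 ± 0.0791), IGFBP2 (2.15 ± 0.297), GHR (1.83 ± 0.160), JAK2 (1.59 ± 0.0399), IGFBP1 (1.17 ± 0.123), IGFALS (0.280 ± 0.113) and IGF1 (0.0181 ± 0.0185, SD, n = 3 for each). Of the neighbours in this order, the libraries of STAT5B and IGFBP3 overlapped, as did those of IGFBP2 and GHR, and the other pairs were apart. In PELP1-KD the order was STAT5B (9.73 ± 0.330 RPKM), IGFBP4 (6.50 ± 0.0950), IGFBP3 (5.80 ± 0.121), IGF1R (4.47 ± 0.0800), JAK2 (2.59 ± 0.259), IGFBP1 (0.560 ± 0.0413), GHR (0.490 ± 0.0819), IGFBP2 (0.173 ± 0.0119), IGFALS (0.0202 ± 0.0177) and IGF1 (0.0125 ± 0.00779, SD, n = 3 for each). Here IGFBP1 and GHR overlapped, as did IGFALS and IGF1. By RPKM, JAK2 thus stood below GHR in control and above it in PELP1-KD. In control GHR was only 1.15 times JAK2, and whether the exon lengths used account for so small a gap was not tested.

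**Figure D3:**
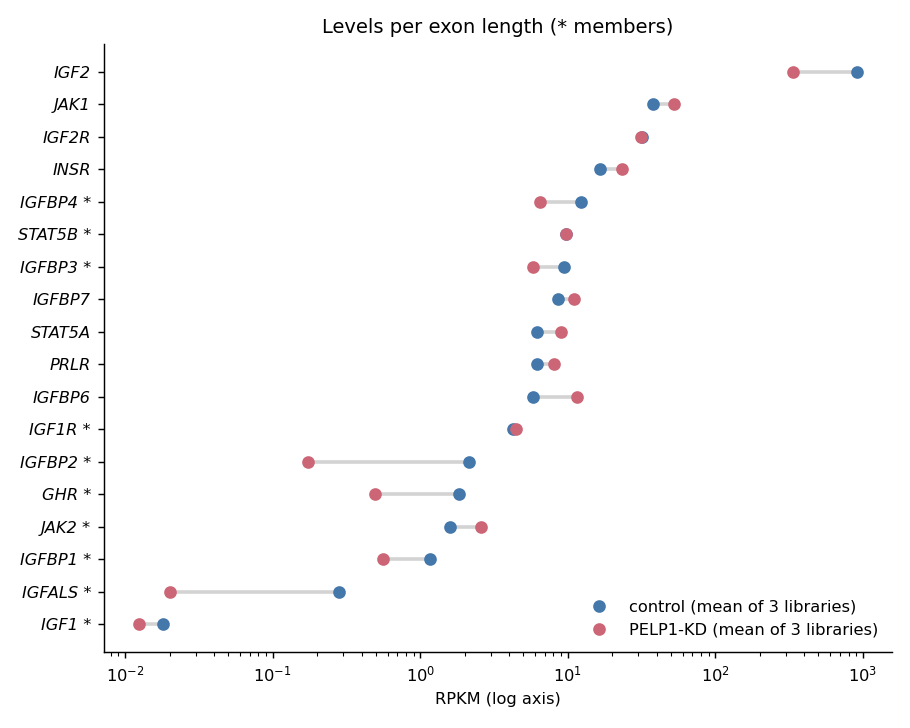
Mean level per exon length (horizontal log axis, RPKM) in control (blue) and PELP1-KD (red) for the members, marked with an asterisk, and 8 related genes. IGF2 is far above the rest at 907 and 337 RPKM, and IGF1 is the lowest at 0.0181 and 0.0125 RPKM.

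The make-up of IGF binding protein transcripts differed between the groups, with less of the 4 member genes and more of IGFBP6 and IGFBP7. IGFBP6 prefers IGF2 over IGF1, and IGFBP7 is a related protein that binds IGF weakly. The RPKM of IGFBP1 to IGFBP4 summed to 25.0 ± 0.183 in control and 13 ± 0.205 in PELP1-KD (SD, n = 3 each). Adding IGFBP6 and IGFBP7, the sum was 40.3, 39.1 and 38.4 RPKM for control replicates 1 to 3 and 33.2, 35.3 and 38.2 for PELP1-KD. The totals of control replicate 3 and PELP1-KD replicate 3 were nearly the same. Within them IGFBP4 took 31.2% ± 2.18 in control and 18.3% ± 1.54 in PELP1-KD, and IGFBP3 23.9% ± 1.67 and 16.4% ± 1.47. IGFBP2 took 5.46% ± 0.710 and 0.487% ± 0.0251, and IGFBP1 2.98% ± 0.238 and 1.58% ± 0.155. IGFBP6 took 14.8% ± 0.655 and 32.4% ± 2.33, and IGFBP7 21.7% ± 1.67 and 30.8% ± 1.33 (SD, n = 3 for each share). IGFBP5 had at most 2 reads in a library.

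**Figure D4:**
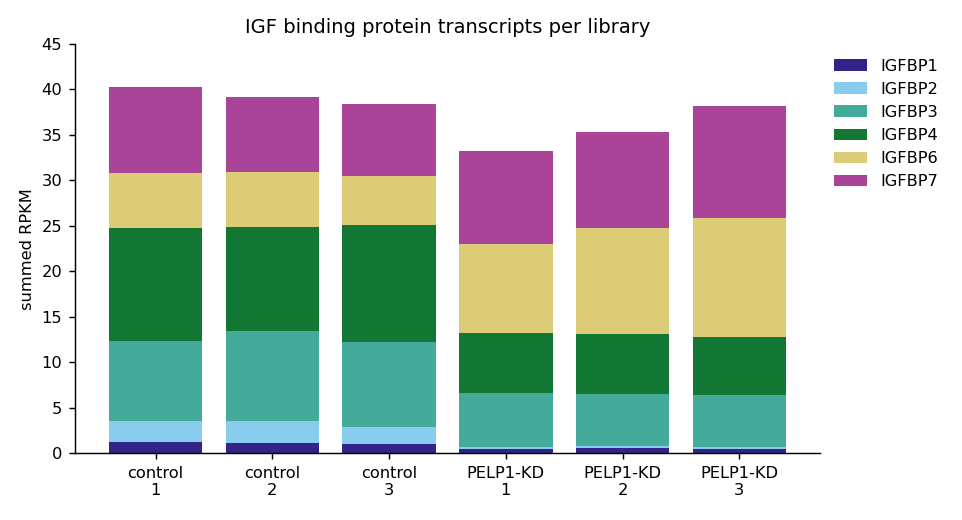
Summed RPKM of the IGF binding protein genes (vertical axis) in each library, divided by gene. IGFBP1 to IGFBP4 fill 25.0 RPKM on average in control and 13 in PELP1-KD, and IGFBP6 and IGFBP7 fill more of the PELP1-KD bars.

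The rest of the pathway was taken as 83 genes in 6 lists, of which 73 passed the filter on low counts. Of these, 17 (23.3%) were lower, 30 (41.1%) were higher and 26 were not called at an adjusted p below 0.05, where 26.7% of all tested genes were lower and 26.8% higher. The 73 genes had a median log2 fold change of 0.07. Of the called genes, 4 fell and 3 rose by 2-fold or more. By the same rule 4.79% of all tested genes fell and 2.85% rose. The lists were put together with results of these libraries known, so their counts are descriptions.

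Among the ligands and receptors, IGF2 fell, and the prolactin and insulin receptors rose. IGF2, a fetal growth factor that acts through IGF1R, had 194389, 184429 and 192892 reads in control and 64411, 56246 and 68794 in PELP1-KD. No library of PELP1-KD came near the control level, and IGF2 exceeded IGF1R 212 ± 6.95 times per length in control and 75.4 ± 2.49 times in PELP1-KD (SD, n = 3 each). The log2 fold change of IGF2 was −1.43 (standard error 0.03, adjusted p = 7.45e-19). IGF2 shares 4881 of its 6305 exon bases with the readthrough gene INS-IGF2, so the deposited value is a part of the reads there. INSR, the insulin receptor, rose, with 4704 ± 93.3 normalized reads in control and 6658 ± 160.2 in PELP1-KD (SD, n = 3 each) and a log2 difference of 0.50 (adjusted p = 5.69e-10). PRLR, the prolactin receptor, which is related to GHR, rose by 0.40 on the log2 scale (adjusted p = 9.81e-07). IGF2R, which clears IGF2 from the cell surface, was not called (−0.02, adjusted p = 0.60). GH1, GH2, PRL, CSH1, INS and INSRR had at most 2 reads in a library. The ratio of IGF1R to INSR per length was 0.259 ± 0.00957 in control and 0.191 ± 0.00353 in PELP1-KD, and that of GHR to PRLR was 0.297 ± 0.0235 and 0.0600 ± 0.00597 (SD, n = 3 each).

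A list of 20 genes covered signaling of the growth hormone receptor and related cytokine receptors. All 20 were tested, 11 rose, 0 fell and 9 were not called, beside 26.8% higher and 26.7% lower among all tested genes. At an unadjusted p below 0.05 from edgeR 1 gene was lower, and 0 were lower by DESeq2 at an adjusted p below 0.05. SOCS2, an inhibitor that growth hormone itself induces, had 175, 205 and 166 reads in control and 528, 488 and 562 in PELP1-KD. It rose by 1.70 on the log2 scale (standard error 0.09, adjusted p = 3.03e-12). CISH, another inhibitor of that kind, whose promoter is printed above, was not called, with a log2 fold change of 0.21 (95% interval −0.09 to 0.51, adjusted p = 0.106). STAT5A, which lies beside STAT5B, rose, with 837 ± 80.9 normalized reads in control and 1216 ± 17.0 in PELP1-KD (SD, n = 3 each) and a log2 difference of 0.54 (adjusted p = 3.85e-07). The ratio of STAT5B to STAT5A per length went from 1.58 ± 0.103 to 1.08 ± 0.0386 (SD, n = 3 each). JAK1, a kinase of cytokine receptors, rose by 0.46 (adjusted p = 8.30e-10). PTPN11, the phosphatase SHP2, and the adaptor GRB2 were not called (−0.03, adjusted p = 0.448, and −0.07, adjusted p = 0.0823). With the replicate number as a block, GRB2 was called lower (adjusted p = 0.0123).

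Of 12 genes of IGF binding and release, 9 were tested, 5 rose, 2 fell and 2 were not called. Over all tested genes 26.8% rose and 26.7% fell. IGFBP6 rose, with 176 ± 10.5 normalized reads in control and 351 ± 48.1 in PELP1-KD (SD, n = 3 each) and a log2 difference of 0.99 (adjusted p = 1.17e-07). ADAM28, a metalloprotease that can cut IGFBP3, was rare, at 2, 7 and 8 reads in control and 25, 34 and 21 in PELP1-KD, and rose by 2.38 on the log2 scale (standard error 0.42, adjusted p = 7.79e-05). It passed the filter on low counts only through the PELP1-KD libraries, where it was higher, so its call is a description. STC2, which inhibits the IGFBP4 protease PAPPA, rose by 0.36 (adjusted p = 7.03e-06). PAPPA had a log2 fold change of 0.30 (adjusted p = 0.0856) and ADAM9, another metalloprotease, of −0.04 (adjusted p = 0.444), and neither was called. The serine protease HTRA1 fell by 1.61 on the log2 scale (adjusted p = 0.00810), with 20, 30 and 16 reads in control and 3, 13 and 3 in PELP1-KD. IGFBPL1 fell by 1.00 (adjusted p = 0.0103). Both calls rest on few reads, and HTRA1 passed the filter on low counts only through the control libraries, where it was higher. Without replicate 2 of control HTRA1 had an adjusted p of 0.0573, without replicate 2 of PELP1-KD it had a log2 fold change of −2.73, and without replicate 3 of control IGFBPL1 had 0.0777.

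Downstream of the IGF1 and insulin receptors, 25 of 26 genes were tested, 9 fell, 6 rose and 10 were not called. The shares over all tested genes were 26.7% lower and 26.8% higher. FOXO1, the transcription factor that insulin signaling keeps out of the nucleus and that activates IGFBP1, fell, with 834 ± 44.1 normalized reads in control and 491 ± 32.0 in PELP1-KD (SD, n = 3 each) and a log2 difference of −0.76 (adjusted p = 1.07e-08). PIK3R2, a regulatory subunit of phosphoinositide 3-kinase, had a log2 fold change of −0.58 (adjusted p = 2.06e-10), and the adaptor SHC1 of −0.44 (adjusted p = 4.90e-09). RICTOR, a subunit of mTOR complex 2, rose by 0.35 (adjusted p = 6.49e-05), the receptor substrate IRS2 by 0.25 (adjusted p = 0.000146) and TSC1, which restrains mTOR, by 0.20 (adjusted p = 0.000946). The kinases AKT2 (0.01, adjusted p = 0.883) and MTOR (0.03, adjusted p = 0.502) were not called.

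Transcripts of the 3 genes named for binding IGF2 mRNA were also measured. IGF2BP2 fell, with 3543 ± 55.1 normalized reads in control and 2629 ± 59.1 in PELP1-KD (SD, n = 3 each) and a log2 difference of −0.43 (adjusted p = 1.84e-08), and IGF2BP3 fell by 0.16 (adjusted p = 0.00270). IGF2BP1, the most abundant of the 3 at 62.7 RPKM in control, was not called (0.03, adjusted p = 0.353).

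Among 12 liver transcription factors, 3 fell, 6 rose and 3 were not called, beside 26.7% lower and 26.8% higher among all tested genes. CUX2, a repressor that responds to growth hormone in rodent liver, had 97, 103 and 63 reads in control and 6, 1 and 5 in PELP1-KD. All control libraries lay far above the PELP1-KD libraries, and the log2 fold change was −4.25 (standard error 0.35, adjusted p = 3.71e-09). CUX2 passed the filter on low counts only through the control libraries, where it was higher, so its call is a description. BCL6, a repressor that competes with STAT5 at shared sites, fell by 0.43 (adjusted p = 0.000117). CEBPB rose by 0.59 (adjusted p = 1.57e-10) and HNF4A by 0.23 (adjusted p = 1.37e-05). FOXA1 and FOXA2 were not called (−0.06 each, adjusted p = 0.200 and 0.292).

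**Figure D5:**
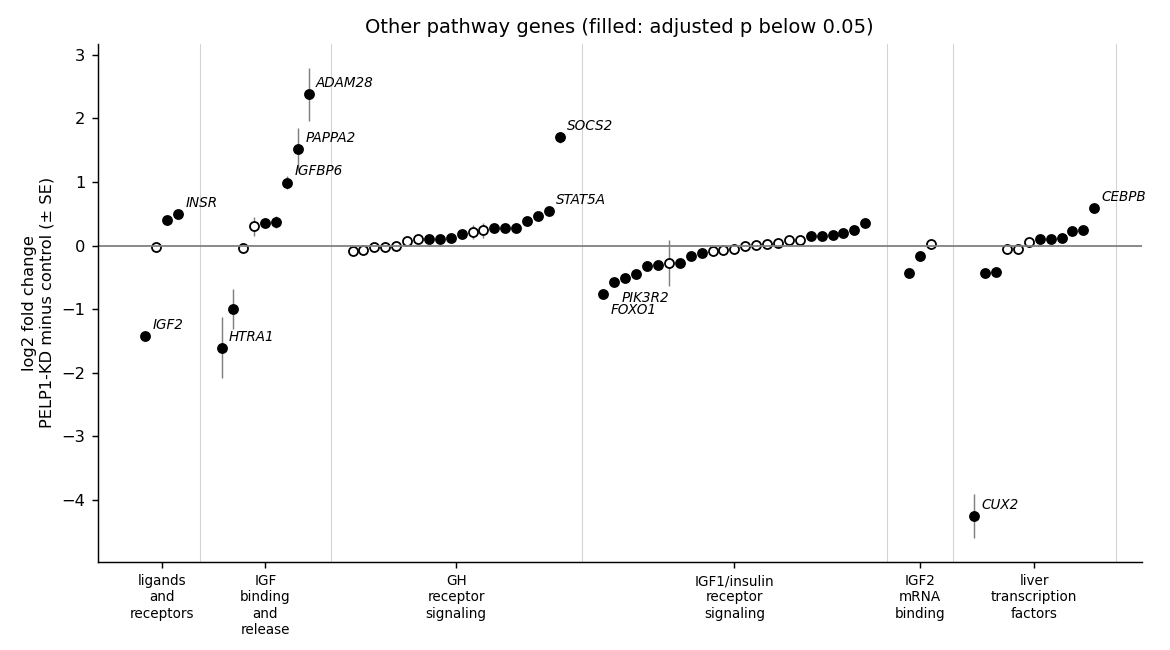
Log2 fold change of PELP1-KD minus control (vertical axis, ± standard error) for the 73 tested pathway genes outside the members, sorted within 6 lists. Filled points passed an adjusted p below 0.05 from edgeR. ADAM28 at 2.38 is the highest point and CUX2 at −4.25 the lowest. Each passed the filter on low counts only through the group where it was higher.

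The genes beside the members on the chromosomes were compared as well, since position was not used in choosing the members. The nearest tested genes on either side gave 18 neighbours that were no members themselves. Of these, 8 were lower, 4 higher and 6 not called at an adjusted p below 0.05, where 26.7% of all tested genes were lower and 26.8% higher, and their median log2 fold change was −0.11. Around GHR, FBXO4 fell by 0.52 (adjusted p = 1.44e-05) at a distance of 482 kb, and SEPP1, which encodes selenoprotein P, had −0.10 (adjusted p = 0.0496) at 78 kb. Around IGFALS, NUBP2 was 1.22 kb away with −0.19 (adjusted p = 0.0153), and HAGH 14.2 kb away was not called (−0.11, adjusted p = 0.172). Around IGFBP2, the ribosomal protein gene RPL37A was not called (−0.03, adjusted p = 0.570) and TNS1 rose by 0.35 (adjusted p = 0.00127). Differences between a member and its neighbours were not tested.

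The outer neighbours of the IGFBP1 and IGFBP3 pair were SEPT7P2 (−0.19, adjusted p = 0.179) and TNS3, which rose by 0.41 (adjusted p = 1.22e-08) at a distance of 1354 kb. Beside IGFBP4, the topoisomerase gene TOP2A fell by 0.22 (adjusted p = 3.55e-05), and SMARCE1 was not called (−0.09, adjusted p = 0.0528). SMARCE1 lay at the threshold. Blocking on the replicate number gave a lower call (adjusted p = 0.00569), as did either other scaling (0.045 and 0.0385), DESeq2 (0.047) and either stricter filter on low values (0.0391 and 0.05 after rounding). Beside JAK2, RCL1 had −0.17 (adjusted p = 0.0362) and C9orf46 0.06 (adjusted p = 0.606). STAT5B has STAT5A 11.1 kb away and GHDC (0.13, adjusted p = 0.0417) 4.64 kb away. IGF1R lies between ARRDC4, which was rare and fell by 2.35 (adjusted p = 3.30e-05), and SYNM (−0.17, adjusted p = 0.00748). ARRDC4 passed the filter on low counts only through the control libraries, where it was higher. C12orf48, a neighbour of IGF1, was not called (−0.11, adjusted p = 0.237).

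Some of the smaller neighbour calls depended on a library, and that of SEPP1 also on the processing. SEPP1 had an adjusted p of 0.204 without control replicate 1, 0.176 without control replicate 2, 0.0562 without PELP1-KD replicate 2 and 0.165 without PELP1-KD replicate 3. With upper-quartile scaling its adjusted p from edgeR was 0.0611, and with a mean of at least 1 RPKM required it was 0.0541. RCL1 had 0.0936 and 0.159 without control replicates 1 and 2, and 0.0724 and 0.0781 without PELP1-KD replicates 1 and 2. GHDC had 0.175 and 0.0665 without control replicates 1 and 2, and 0.0546 and 0.156 without PELP1-KD replicates 2 and 3. NUBP2 had 0.0677 without control replicate 3 and 0.0997 without PELP1-KD replicate 1, and SYNM had 0.0599 without control replicate 1. Conversely, without PELP1-KD replicate 1 SEPT7P2 (adjusted p = 0.00323) and C12orf48 (adjusted p = 0.0333) were called lower, and without PELP1-KD replicate 3 so was SMARCE1 (adjusted p = 0.0119).

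The genes whose profile over the 6 libraries was most like that of GHR were sought among 11986 other genes with at least 100 normalized reads in a group. The measure was the mean absolute difference of log2 values set to 0 in control. The closest were C6, a terminal complement component (0.0645), APOH, a phospholipid-binding plasma protein (0.121), SLCO1B3, an organic anion transporter of hepatocytes (0.127), RGS2, a regulator of G-protein signaling (0.131), and SMAD9, a transducer of BMP signals (0.135). The median over the genes was 0.995. C6 lies on chromosome 5, as GHR does, from 41142336 to 41261540, and the part of position was not tested. C6 went from 107 to 28.0 normalized reads and APOH from 5822 to 1586, both means of 3 libraries. Since the 6 libraries form 2 groups, this likeness is mainly a likeness in fold change.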

How the data were processed

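RNA of 3 control and 3 PELP1-KD Hep3B libraries was sequenced. The authors deposited estimated counts per gene, made with featureCounts v1.5.0-p1 on the hg19 annotation, counting reads by strand at a mapping quality of at least 2 and giving reads with several places a fraction to each. From 10.6% to 13.3% of the values in a library were not whole, so all were rounded. The labels list HISAT2 as aligner, whereas the methods name TopHat2. For counting, the methods name HTSeq and not featureCounts. Which aligner was used, and whether the study analysed the deposited counts, was not settled.

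Genes were filtered with filterByExpr, scaled by TMM, and compared with edgeR 4.0.16 (R 4.3.3), using its robust quasi-likelihood test with Benjamini-Hochberg adjustment over 14537 genes. Calls required an adjusted p below 0.05. Standard errors were derived from the fold change and its F statistic, and 95% intervals used 4 degrees of freedom. RPKM used exon lengths and scaled library sizes. Exact binomial intervals and floors of 3 reads cover counting error only. DESeq2 1.42.0 was an alternative, as were other scalings, filters and thresholds, a replicate block, and leaving out each library. The code was tested on simulated data.

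The members and the gene lists were chosen with earlier results of these data known. Besides the members, the text names PELP1, the 3 genes of smallest p per direction among the called genes and the 2 most abundant uncalled genes of each list, the nearest tested genes on each side of a member, and the 5 genes most like GHR. CISH, IGFBP7 and the marker genes fall outside this rule and were named after their values were seen. A few genes that the rule or a marker list holds are counted but not reported here by name.

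The main fit did not pair the libraries. Replicate numbers were used as pairs only in the alternative with a replicate block. Deviations from the group means, over 6397 genes with a log2 CPM above 5, correlated at 0.333, 0.242 and 0.665 for libraries of the same number. The numbers come from the titles, which do not say what they mark, and control replicate 2 correlated more with PELP1-KD replicate 1 (0.419). Chi-square per degree of freedom between libraries of a group was 1.92 to 6.76, above sampling noise, so none was counted as a repeat.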

Additional observations from a re-analysis of the deposited data

How the results depend on the processing

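The median log2 fold change of the tested members was −0.91. It was −0.70 when at least 10 reads were required in every library, which left 7 members, and −0.80 with a mean of at least 1 RPKM, which left 8. It ranged from −0.96 to −0.87 when libraries were left out in turn. The number of genes called with a 2-fold change was 1111, and 595 with at least 1 RPKM, where 12405 genes were tested. The members called at an adjusted p below 0.05 numbered 6 lower and 1 higher in each alternative that kept all 9. Of the 4 with a 2-fold change, IGFBP1 fell short without control replicate 1. Requiring at least 10 reads in every library removed IGFALS and IGFBP2, which left GHR and IGFBP1 past the 2-fold limit. Requiring a mean of at least 1 RPKM removed IGFALS, which left GHR, IGFBP1 and IGFBP2. Pathway calls ranged from 14 to 19 lower and from 22 to 33 higher.

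With the replicate block, 19 pathway genes were lower and 33 higher, 8826 genes were called in all, and the member median was −0.92. The block added the calls of PELP1, GRB2 and SMARCE1 and changed no other call among 53 named genes outside the members. Over all alternatives 12 of these 53 had a call that changed. Among the members, IGF1 and IGFALS had the fewest reads, 14 and 64 over the control libraries.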
